A study of Mus musculus with 2 samples.

Results

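The 10 genes described here, En1, En2, Pitx3, Nr4a2, Lmx1a, Lmx1b, Foxa1, Foxa2, Otx2 and Sox6, encode transcription factors that specify or maintain the dopaminergic (DA) neurons of the midbrain. They were taken by gene symbol from a table of 31252 gene rows, where each of the 10 had 1 row. RNA came from the ventral midbrain of mice of 2 months on an incipient congenic C57BL/6 background, in 2 libraries, 1 labelled Ctrl and 1 labelled OE. Both groups carried Slc6a3-Cre, in which the dopamine transporter gene drives Cre in DA neurons, and the OE group also carried the CAG-S-COUP-TFII allele, from which Cre releases expression of COUP-TFII. The study bred its Ctrl and OE mice as littermates, from crosses that also carried floxed Tfam and a tdTomato reporter, and the study as a whole used animals of either sex. The sex of the sequenced mice, whether they carried those further alleles and whether tissue was pooled are not given in the sources used here.

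During development, signals from the floor plate induce Foxa1, Foxa2, Lmx1a and Lmx1b in ventral midbrain progenitors, and these factors switch on the programme of DA neurons. Nr4a2 and Pitx3 then act in postmitotic neurons on the genes for making, packing and taking up dopamine, and En1 and En2 are needed for the survival of the neurons. In the adult, Sox6 marks many DA neurons of the substantia nigra and Otx2 many of those of the ventral tegmental area. Several of the factors are also made elsewhere in the brain, for example Sox6 in oligodendrocyte precursors, Otx2 in the choroid plexus, and Lmx1b in serotonergic neurons.

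Levels are expected counts, in which RSEM estimates how many reads came from each gene, or normalized counts, which are scaled for library size. Differences are log2 ratios of the OE-labelled library over the Ctrl-labelled library. The counts summed to 16984336 in the Ctrl-labelled library and to 21326632 in the other. With 1 library per group, no difference has a replicate check and no test between the genotypes could be made. Each 95% interval reflects counting error alone and sets 1 library against the other. Nr2f2, the gene for COUP-TFII, had 637 counts in the Ctrl-labelled library and 377 in the OE-labelled library, a log2 ratio of -1.07 (interval -1.26 to -0.88). Its direction is opposite to that of the labels. The paper reported the overexpression in isolated DA neurons, whereas these counts are of whole tissue, so they cannot settle whether the labels hold. From this sequencing the paper also reported several aldehyde dehydrogenase genes as repressed in OE mice, without naming them in its Results text. At an older age than here, it counted fewer DA neurons in OE mice. In the OE-labelled library, Aldh1a1, a gene of that enzyme family, and Th were higher, with log2 ratios of 0.83 and 1.59. Each direction below is that of the labels as deposited, and all would turn if the labels were exchanged. The labels give the cell type as dopaminergic neurons, but the tissue was mixed: Mbp, a myelin gene of oligodendrocytes, had 128974 and 139810 counts, against 2499 and 9354 for Th, the rate-limiting enzyme of dopamine synthesis.

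In the mouse genome (GRCm38, GENCODE M21), the 10 genes lie on 7 chromosomes. En1 (chr1:120602418-120607992) and Lmx1a (chr1:167689237-167848741) share chromosome 1, both on the plus strand. Lmx1b (chr2:33560965-33640511), Nr4a2 (chr2:57106830-57124003) and Foxa2 (chr2:148042877-148046969) lie on the minus strand of chromosome 2. En2 (chr5:28165694-28172166) is on the plus strand. Sox6 (chr7:115470872-116038796), Foxa1 (chr12:57540628-57546916), Otx2 (chr14:48657677-48673819) and Pitx3 (chr19:46135685-46148326) are on the minus strand. Exons of Otx2 share 168 bases with Gm49154 on the same strand, which has no row in the count table, and 154 bases with Otx2os1 on the other strand, which had 0 counts in both libraries. Those of Pitx3 overlap 10 bases of Elovl3, which had 1 and 3 counts.

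Promoter windows of 300 bases, from 250 before to 50 after a RefSeq transcript start (GRCm38.p6), were found for 9 of the 10 genes, all but En2, in 19 windows. They were searched on both strands for 8 short motifs: the hexamer AGGTCA, bound by COUP-TFII and other nuclear receptors, the homeodomain motif TAATTA, the Pitx and Otx motif TAATCC, the forkhead motif TGTTTAC, the Sox motif AACAAT, the CCAAT box, the GC box GGGCGG and the TATA box TATAAA. The sequences given are those of En1 and Pitx3, which had the largest log2 ratios among the genes with a window, of Foxa1, the gene whose window held the forkhead motif, and 1 of the 6 windows of Sox6, a gene with a ratio near 0 whose window held AGGTCA. Capitals mark the motif matches on either strand. The windows are En1 chr1:120602237-120602536 (plus strand), Pitx3 chr19:46148276-46148575, Foxa1 chr12:57546062-57546361 and Sox6 chr7:116030998-116031297 (all minus strand).
En1: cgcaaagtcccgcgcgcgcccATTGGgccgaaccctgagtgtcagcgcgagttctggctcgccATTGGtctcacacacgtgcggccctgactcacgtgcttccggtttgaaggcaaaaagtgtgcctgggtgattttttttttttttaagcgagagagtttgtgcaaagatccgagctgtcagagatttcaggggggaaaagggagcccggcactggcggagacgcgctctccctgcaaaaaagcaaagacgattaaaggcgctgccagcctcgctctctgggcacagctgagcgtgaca
Pitx3: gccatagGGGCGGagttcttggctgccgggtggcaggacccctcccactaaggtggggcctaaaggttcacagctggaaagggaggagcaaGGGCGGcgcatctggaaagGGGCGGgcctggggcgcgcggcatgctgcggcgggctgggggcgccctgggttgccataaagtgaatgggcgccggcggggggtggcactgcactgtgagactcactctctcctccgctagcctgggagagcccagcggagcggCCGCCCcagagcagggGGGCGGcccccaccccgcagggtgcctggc
Foxa1: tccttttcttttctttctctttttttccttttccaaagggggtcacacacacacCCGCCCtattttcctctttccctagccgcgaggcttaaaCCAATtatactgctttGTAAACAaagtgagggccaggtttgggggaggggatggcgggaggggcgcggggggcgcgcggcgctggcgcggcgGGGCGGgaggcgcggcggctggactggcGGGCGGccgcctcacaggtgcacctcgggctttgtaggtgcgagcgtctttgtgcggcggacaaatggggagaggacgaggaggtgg
Sox6: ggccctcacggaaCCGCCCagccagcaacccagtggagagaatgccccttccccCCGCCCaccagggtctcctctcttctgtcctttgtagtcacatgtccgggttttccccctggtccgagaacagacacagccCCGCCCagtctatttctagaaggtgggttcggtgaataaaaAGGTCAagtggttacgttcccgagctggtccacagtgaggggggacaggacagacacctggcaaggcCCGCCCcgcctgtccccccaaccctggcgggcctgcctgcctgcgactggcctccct

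The En1 window held CCAAT 2 times, both as its reverse complement, and the Pitx3 window held the GC box 5 times. The Foxa1 window held 1 match of the motif that forkhead factors such as its own product bind. AGGTCA was found in windows of 1 of the 9 genes, Sox6, in 2 of its 6 windows, and in 16.3% of all 32851 promoter windows. TGTTTAC was in 3.65% of all windows, TAATTA in 5.29% and among the 9 genes in windows of Otx2, and TAATCC in 7.06% and in windows of Otx2 and Sox6. The CCAAT box and the GC box were each found in 8 of the 19 windows, and in 37.4% and 35.7% of all windows. AACAAT was in 2 of the 19 windows, 1 of Nr4a2 and 1 of Sox6, and in 10.7% of all windows. TATAAA was in 5 of the 19 and in 13.6% of all. Some windows of Otx2 overlap each other, and a match of letters is not a bound site.

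By the threshold in the study's methods, log2 0.2, 8 of the 10 genes were higher in the OE-labelled library and 0 were lower. By the same threshold, 17.9% of the 15246 genes that averaged 10 counts or more were higher and 16.6% lower. The same 8 genes had a counting interval above 0, and 0 had an interval below 0, against 15.9% and 14.4% of all genes. For 6 genes the log2 ratio was over 1, which 1.53% of all genes passed. The median log2 ratio was 1.21 over the 10 genes and 0.0047 over all genes. In bulk tissue, fewer cells of a type and less RNA per cell cannot be told apart. Regional markers differed as well: the 8 thalamus markers given below had a median log2 ratio of -2.33. With 1 library per group, a difference in the dissected region cannot be told apart from one of genotype. This holds for the 10 genes and for the lists below.

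**Figure D1:**
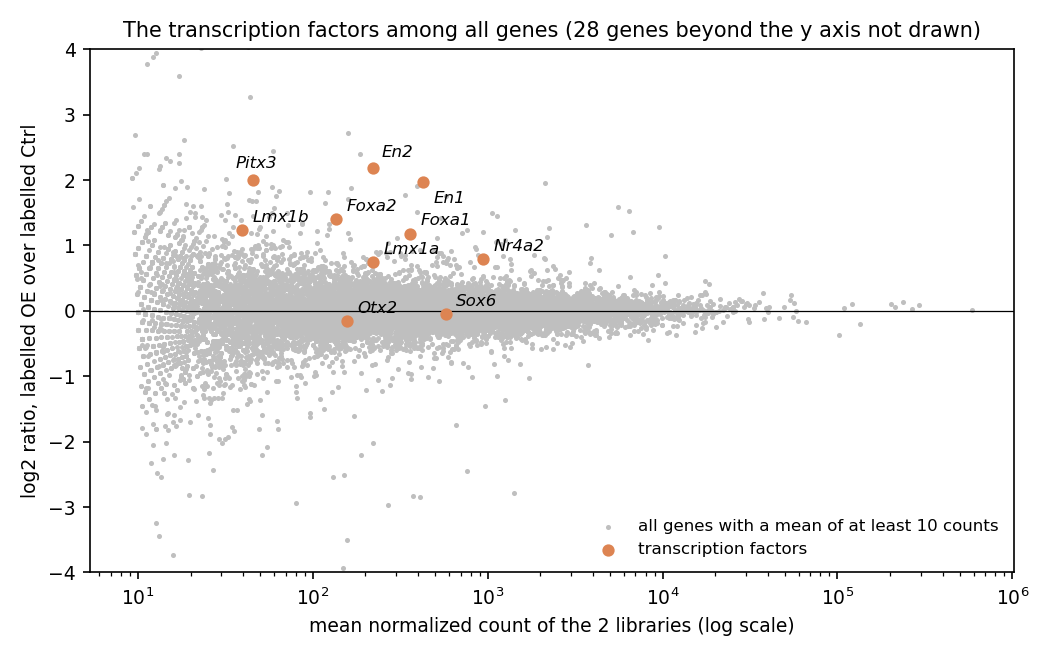
Each point is a gene that averaged 10 counts or more, placed by its mean normalized count over the 2 libraries (log scale) and its log2 ratio, labelled OE over labelled Ctrl; the transcription factors are named. Otx2 and Sox6 lie near 0, and the other 8 lie from 0.75 to 2.19. A further 28 genes lie beyond the y axis and are not drawn.

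The engrailed genes En1 and En2, homeodomain factors of the midbrain and anterior hindbrain, differed most together with Pitx3. En2 had 71 counts in the Ctrl-labelled library and 405 in the OE-labelled library, or 79.1 and 363 normalized counts, a log2 ratio of 2.19 (interval 1.83 to 2.58). En1 had 156 and 758 counts, or 174 and 680 normalized counts, a log2 ratio of 1.96 (interval 1.72 to 2.23). En2 ranked 36 and En1 ranked 45 from the top of the 15246 genes. Counting error did not separate the paralogues: the log2 ratio of En2 minus that of En1 was 0.23, with an exact conditional interval from -0.22 to 0.69. There were 2.20 counts of En1 for each count of En2 in the Ctrl-labelled library and 1.87 in the OE-labelled library.

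Pitx3, a homeodomain factor that within the brain is largely restricted to midbrain DA neurons, had 16 counts in the Ctrl-labelled library and 81 in the OE-labelled library. Its log2 ratio was 2.00, but the low counts gave a wide interval, 1.24 to 2.90. Nr4a2 (Nurr1), an orphan nuclear receptor required for the dopaminergic phenotype, had 617 and 1329 counts, or 688 and 1192 normalized counts, a log2 ratio of 0.79 (interval 0.66 to 0.93). The log2 ratio of Nr4a2 was lower than that of Pitx3 by a difference of -1.23 (interval -2.12 to -0.43). There were 38.6 counts of Nr4a2 for each count of Pitx3 in the Ctrl-labelled library and 16.4 in the OE-labelled library. Nr4a2 is also an immediate early gene, induced by neuronal activity outside DA neurons. Its paralogue Nr4a1 had 196 and 231 counts and a log2 ratio of -0.08 (interval -0.36 to 0.21), 0.87 below that of Nr4a2 (interval of the difference 0.55 to 1.18). Among 8 immediate early genes, Nr4a1 included, 2 were higher by more than log2 0.2 and 1 was lower. Of all genes, 17.9% were higher and 16.6% lower. The 8 immediate early genes had a median of -0.036, the highest being Junb, 0.69, and the lowest Egr1, also the most abundant, -0.27. Their part in the value of Nr4a2 was not tested.

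The floor plate factors were all higher in the OE-labelled library. Foxa2, a forkhead pioneer factor, had 67 and 221 counts, or 74.7 and 198 normalized counts, a log2 ratio of 1.40 (interval 1.01 to 1.83). Its paralogue Foxa1 had 198 and 558 counts, or 221 and 501 normalized counts, a log2 ratio of 1.18 (interval 0.95 to 1.42). The difference between these paralogues, 0.23, had an interval from -0.24 to 0.71. Lmx1b, a LIM-homeodomain factor, had only 21 and 62 counts, and its log2 ratio of 1.23 had an interval from 0.51 to 2.04. Lmx1a had 148 and 309 counts, or 165 and 277 normalized counts, and the smallest log2 ratio of the 8 genes, 0.75 (interval 0.46 to 1.04). The difference of Lmx1b minus Lmx1a was 0.50, with an interval from -0.30 to 1.34 that included 0. The 4 genes are also expressed in the subthalamic and posterior hypothalamic region. In a list of 6 markers of that region, 5 were higher by more than log2 0.2, against 17.9% of all genes. The median of the list was 0.62, and the summed level was 603 normalized counts in the Ctrl-labelled library and 940 in the OE-labelled library. In that list Nkx2-1 had the highest ratio (27 and 96 counts), and Foxb1 the lowest, 0.15. Their part in the values of the floor plate factors was not tested.

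Otx2 and Sox6, which distinguish subtypes of DA neurons, did not share the difference. Sox6, an HMG-box factor, had 527 and 631 counts, or 587 and 566 normalized counts, a log2 ratio of -0.05 with an interval from -0.22 to 0.12. Otx2, a homeodomain factor, had 149 and 166 counts, or 166 and 149 normalized counts, a log2 ratio of -0.16 with an interval from -0.49 to 0.17. Neither difference was detectable at this depth. The intervals of both lay below that of Lmx1a, the next gene in order, and the log2 ratio of Lmx1a exceeded that of Sox6 by 0.80 (interval 0.47 to 1.14). Without correction for gene length, there were 1.05 counts of En1 for each count of Otx2 in the Ctrl-labelled library and 4.57 in the OE-labelled library. The members of the Sox family nearest to Sox6 had log2 ratios of -0.24 for Sox5 (interval -0.46 to -0.01) and -0.23 for Sox13 (interval -0.51 to 0.05), and Otx1 had 0.38 (interval -0.05 to 0.82).

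Markers of other places where these 2 genes are made were read beside them. Of 7 markers of oligodendrocyte precursors, 1 was higher by more than log2 0.2 (C1ql1, 0.29) and 2 were lower. Of all genes, 17.9% were higher and 16.6% lower. The lowest of the 7 was Sox10, -0.30, and the most abundant, Olig1, was at 0.06. The 7 had a median of -0.061 and a summed level of 10360 and 9809 normalized counts. Of 6 choroid plexus markers, 3 had enough counts: Ttr, the most abundant, had 426 and 67 counts, Kl had 60 and 39, and Clic6 had 62 and 90. The summed level of the 6 was 643 and 192 normalized counts, of which Ttr alone gave 475 and 60.1. All 8 thalamus markers were lower in the OE-labelled library (median -2.33), and their summed level was 9523 and 3418 normalized counts. Ntng1 had the ratio nearest 0 (1924 and 1604 counts). Gbx2 was at 0 counts in the OE-labelled library and had the lowest ratio of the list. It therefore does not set the median, which stayed at -2.33 with Gbx2 at a floor of 3 counts. The part of these cells and regions in the values of Otx2 and Sox6 was not tested.

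**Figure D2:**
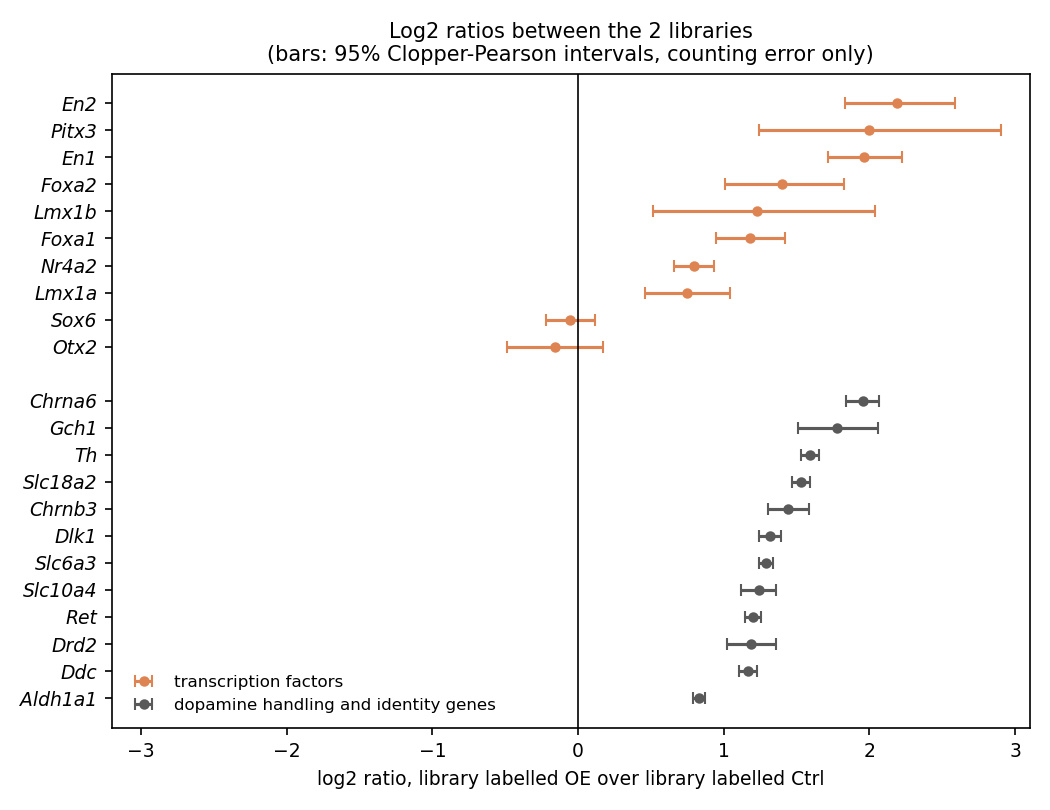
Log2 ratios of the OE-labelled library over the Ctrl-labelled library with 95% counting intervals, for the 10 transcription factors (orange) and 12 dopamine handling and identity genes (grey). The intervals of Sox6 and Otx2 cross 0, and all others lie above it.

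The order of the log2 ratios was En2, Pitx3, En1, Foxa2, Lmx1b, Foxa1, Nr4a2, Lmx1a, Sox6 and Otx2. In this order, 3 steps exceeded counting error: En1 over Foxa2 by 0.56 (interval 0.07 to 1.04), Foxa1 over Nr4a2 by 0.39 (interval 0.11 to 0.67), and Lmx1a over Sox6. For all other neighbours the interval of the difference included 0.

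Levels were compared between genes as normalized counts per kilobase, dividing by the mean length of the coding transcripts of each gene in GENCODE M21. In the Ctrl-labelled library, Nr4a2 had the highest level, 220 per kilobase, ahead of Sox6 (123) and Otx2 (114). Foxa1 (69.2), En1 (66.3), Lmx1a (50.4) and Foxa2 (44.2) came next, then En2 (22.4) and Pitx3 (20.9), with Lmx1b lowest at 7.54. In the OE-labelled library, Nr4a2 was again highest at 381 and Lmx1b lowest at 17.9, but En1 (259) and Foxa1 (157) stood above Sox6 (119) and Otx2 (102). Foxa2 was at 117, En2 at 103, Pitx3 at 85.2 and Lmx1a at 84.7. For 5 of the 9 neighbouring pairs in each library the Poisson intervals overlapped. With the longest transcript as the length, Sox6 was at 67.8 per kilobase and Otx2 at 64.1 in the Ctrl-labelled library, both below Foxa1 with overlapping intervals. In the OE-labelled library that length put Sox6 at 65.3 and Otx2 at 57.5, below Lmx1a at 82.8 with intervals that did not overlap, and Pitx3 at 52.7.

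**Figure D3:**
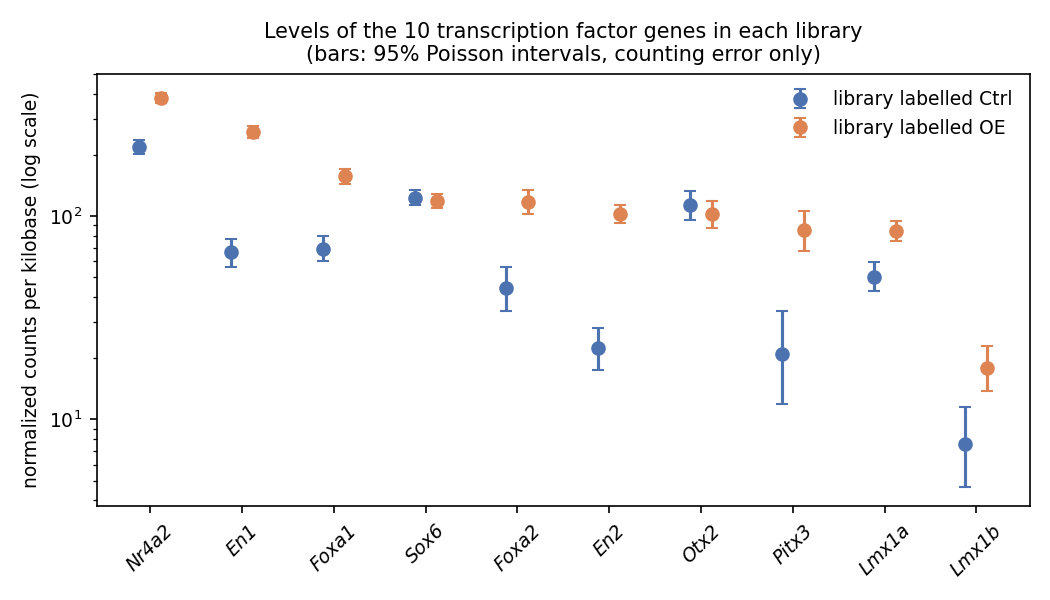
Normalized counts per kilobase of coding transcript (log scale) of each gene in each library, with 95% Poisson intervals, the genes ordered by the level in the OE-labelled library. The intervals of Sox6 and Otx2 overlap between the 2 libraries, and those of the other 8 genes do not.

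A list of 12 genes of dopamine handling and DA identity was read beside these factors. Which of the 12 the factors act on was not tested. In the OE-labelled library, all 12 were higher past log2 0.2, with an interval above 0. Of all genes, 17.9% passed that threshold upwards and 15.9% had an interval above 0. The median log2 ratio of the 12 was 1.30, beside 1.21 for the transcription factors, and their summed level was 31240 and 74750 normalized counts. The largest ratios were 1.95 for Chrna6, a nicotinic receptor subunit of DA neurons (781 and 3758 counts), and 1.78 for Gch1, which makes the cofactor of tyrosine hydroxylase (136 and 580 counts). Slc18a2, the vesicular monoamine transporter, had 2965 and 10636 counts (1.53, interval 1.47 to 1.59), and Ret, a receptor component for glial-derived neurotrophic factors, had 3666 and 10471 (1.20, interval 1.15 to 1.26). The smallest was 0.83 for Aldh1a1, an aldehyde dehydrogenase of ventral nigral DA neurons, whose reads can be shared with the near-identical Aldh1a7.

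Set against Th, a comparison that does not depend on the scaling of the libraries, the factors spread to both sides. En2 exceeded Th by 0.61 (interval 0.23 to 0.998) and En1 by 0.38 (interval 0.12 to 0.64). For Pitx3, Foxa2 and Lmx1b the interval of the difference included 0. Foxa1 lay below Th, with a difference of -0.41 (interval -0.65 to -0.16), as did Nr4a2 with -0.80 (interval -0.95 to -0.64) and Lmx1a with -0.84 (interval -1.14 to -0.54). Sox6 and Otx2 lay furthest below, with -1.64 (interval -1.83 to -1.46) and -1.75 (interval -2.08 to -1.41). Set against Slc6a3, the dopamine transporter gene (4955 and 15033 counts), En1 and En2 were again above, 4 factors were below, and Foxa1 joined those whose interval included 0. The Cre of both groups lies at the Slc6a3 gene itself. En1 and En2 are also genes of the anterior hindbrain, so their excess over Th need not lie in DA neurons. Of genes of the border of midbrain and hindbrain, Pax5 had 1 and 33 counts and Pax2 had 2 and 16. Wnt1 and Fgf8, of the same border, had 0 counts in both libraries. The part of that region in the values of En1 and En2 was not tested.

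**Figure D4:**
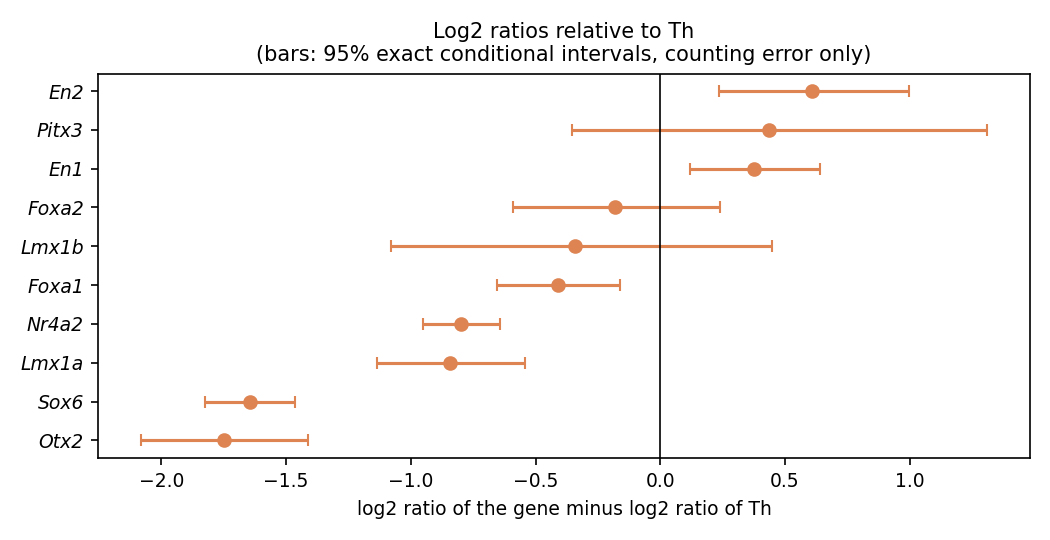
The log2 ratio of each factor minus that of Th, with 95% exact conditional intervals. En1 and En2 lie above Th, and Foxa1, Nr4a2, Lmx1a, Sox6 and Otx2 below it.

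Among 6 other transcription factors found in midbrain DA neurons, 5 passed log2 0.2 upwards in the OE-labelled library and 1 downwards, and their median was 0.44. Neurod6, of a ventral tegmental subtype, had the highest ratio, 0.90 (58 and 135 counts), and Ebf1 the lowest, -0.43. Genes of the subtypes that Sox6 and Otx2 mark were read as well. Of 6 genes enriched in nigral DA neurons, 5 were higher by more than log2 0.2 and 1 was lower, with a median of 0.63. The highest was Kcnj6, a potassium channel (0.89, interval 0.65 to 1.14), and the lowest Igf1 (-0.32, interval -0.51 to -0.13). Aldh1a1 is in this list and also in that of dopamine handling. By the same threshold, 17.9% of all genes were higher and 16.6% lower. Of 7 genes enriched in ventral tegmental DA neurons, 2 were higher, Lpl (1.65, interval 1.20 to 2.12) and Neurod6, and 0 were lower by more than log2 0.2, with a median of 0.028. In that list Calb1, a calcium-binding protein also made by other midbrain neurons, had 1387 and 1757 counts and a log2 ratio of 0.03 (interval -0.07 to 0.13). Both subtype lists were read in mixed tissue, so their medians need not be those of DA neurons. The difference between these lists was not tested.

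For the remaining cells of the tissue, the lists gave smaller medians. The median log2 ratio was 0.12 for 8 genes of all neurons, -0.032 for 7 of GABAergic neurons, -0.096 for 7 of astrocytes, -0.32 for 7 of mature oligodendrocytes and -0.24 for 6 of microglia. Single genes ranged from -0.21 (Rbfox3) to 0.54 (Nefl) in the list of all neurons, with the most abundant, Snap25, at 0.05. The GABAergic list ranged from -0.18 (Tal1) to 0.86 (Sox14), with Gad1, the most abundant, at -0.11. Among glial genes, the astrocyte list ranged from -0.22 (Aqp4) to 0.09 (S100b), with Slc1a2, the most abundant, at -0.17. In the oligodendrocyte list the ratio nearest 0 was -0.17 (Mobp), and the microglial list ranged from -0.57 (Csf1r) to 0.06 (Aif1). Of 7 serotonergic markers, of neurons that can also make En1, En2 and Lmx1b, 6 had enough counts, with a median of 0.093 and a summed level of 801 and 868 normalized counts. The median lies among Htr1a, Gata2 and Gata3, which other neurons also make. Tph2 and Slc6a4, more specific to serotonergic neurons, had low counts but larger ratios. Tph2, the enzyme of brain serotonin synthesis, had 19 and 63 counts (log2 ratio 1.40, interval 0.66 to 2.24), and the transporter gene Slc6a4 had 1 and 24 (3.77, interval 1.66 to 9.63). Fev had 1 and 0 counts and did not reach the count minimum. The most abundant, Htr1a, had 307 and 407. Slc22a3 had the lowest ratio, with 39 and 22 counts (-1.12, interval -1.96 to -0.35). Their part in the values of En1, En2 and Lmx1b was not tested.

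**Figure D5:**
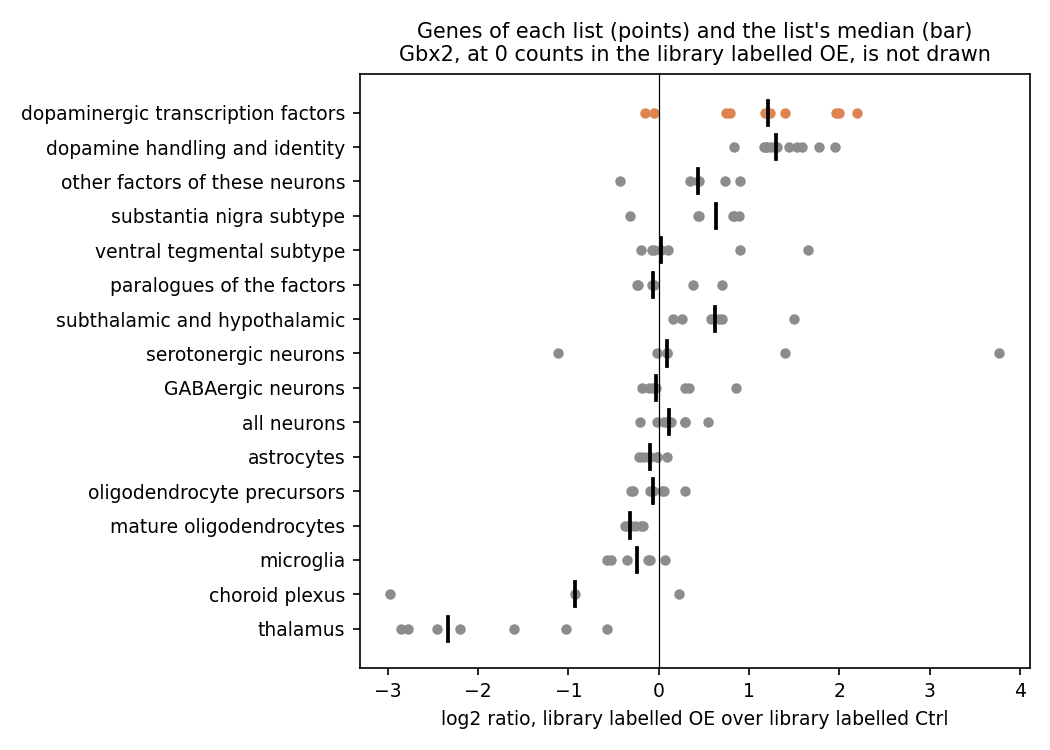
Log2 ratios of the genes of each list (points; genes averaging 10 counts or more) and the list's median (bar). The dopaminergic transcription factors and the dopamine handling genes have medians of 1.21 and 1.30, and the thalamus list has a median of -2.33; Gbx2 is not drawn.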

How the data were processed

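The ventral midbrain was sequenced in 2 libraries by a company, with the Illumina TruSeq Stranded mRNA kit and paired reads. The authors deposited expected counts per gene from RSEM, which shares reads between the transcripts they match, with no scaling between libraries. The submitters' processing notes name the build mm10 (GRCm38). The aligner, the RSEM version, the annotation and the strand setting are not given in the sources used here. Columns were matched to samples by the number in their titles.

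The counts were rounded and scaled by TMM (edgeR 4.0.16 in R 4.3.3). Log2 ratios used a pseudocount of 0.5 normalized counts, and shares of all genes used rows with a mean of at least 10 counts. Intervals are Clopper-Pearson on the split of 2 counts, exact Poisson for levels and exact conditional for differences between genes (scipy 1.17.1, Python 3.11.15). They cover counting error only. The genes and lists were chosen with earlier results of these data known. All 10 factors are named, with genes of the effector, paralogue and subtype lists. Of other lists the highest, lowest and most abundant genes are given, except for some genes that are not reported here, and Kl, Tph2, Fev, Gata2 and Gata3 were named after their values were seen. Alternatives were other scalings, a pseudocount of 5, other count minimums, a threshold of log2 0.5 and the longest transcript. Promoters came from a RefSeq table (GRCm38.p6), with 9 of 10 genes matched, and loci from GENCODE M21. No p-value was computed.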

Additional observations from a re-analysis of the deposited data

How the results depend on the processing

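No paired analysis was possible because there is 1 library for each group, which also meant that none could be left out. All 8 factors that were higher in the OE-labelled library stayed higher, and Otx2 and Sox6 stayed between -0.172 and -0.0413, under the 3 other scalings and a pseudocount of 5. Each of these 40 values stayed within the half-width of its counting interval. A change of scaling moves all genes by about the same amount, so the scalings are not separate checks of each gene. Pitx3 moved most, to 1.77 with a pseudocount of 5. The median of the factors ranged from 0.987 to 1.22 over 6 alternatives, the lowest with a mean of at least 100 counts, which leaves out Pitx3 and Lmx1b. That filter left 6 factors higher by more than log2 0.2, against 8 under the other alternatives, a threshold of log2 0.5 included. The median over all genes moved by less than 0.1 with each scaling. The median of the factors minus that of the dopamine handling genes, -0.0955, was -0.171 with a pseudocount of 5 and -0.314 with a mean of at least 100 counts. Nr2f2 stayed lower, from -1.08 to -1.06. With the longest transcript as the length, 4 of 10 genes changed their place in the order of levels in the Ctrl-labelled library and 5 in the OE-labelled library. The depth limits Pitx3 and Lmx1b most, with 16 and 21 counts in the Ctrl-labelled library.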

Other observations

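A list of 15 genes of signals, signalling components and progenitors of the embryonic ventral midbrain was read beside the adult factors. Of these genes, 10 averaged 10 counts or more. In the OE-labelled library, 5 of them were higher past log2 0.2 and 3 lower, and the median was 0.20. Of all genes, 17.9% were higher and 16.6% lower. Only 3 of the listed genes had a counting interval above 0, and 1 had an interval below 0. The lowest ratio was that of Msx1, with 15 and 14 counts (-0.40, interval -1.57 to 0.74). Shh, the floor plate signal, had 115 and 153 counts and a log2 ratio of 0.10 (interval -0.26 to 0.46). Ptch1, its receptor and the most abundant gene of the list, had -0.10 (interval -0.17 to -0.03). Wnt1 and Fgf8, which pattern the border of midbrain and hindbrain in the embryo, had 0 counts in both libraries.

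The largest ratio of the list was that of Pax5, a paired-box factor of the same border, with 1 count in the Ctrl-labelled library and 33 in the OE-labelled library (log2 ratio 4.22, interval 2.15 to 10.1). Pax2, its paralogue, had 2 and 16 counts (2.44, interval 0.60 to 5.85) and did not reach the count minimum. Fgf20, a growth factor for DA neurons, had 19 and 85 counts (1.82, interval 1.12 to 2.65). In a list of 7 hindbrain and cerebellar genes, Cbln1 had 653 and 1680 counts (1.05, interval 0.92 to 1.18), Cbln3 had 10 and 14, and the other 5, Gabra6, Pcp2, Hoxa2, Hoxb2 and Hoxb3, had between 0 and 3 counts in either library. Apart from the extremes and the most abundant gene of each list, these genes were named after their values were seen, and the differences rest on 1 library per group.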
